A study of Rattus norvegicus with 12 samples.

Results

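Gap junctions are channels that join the cytoplasm of neighbouring cells, and connexins are the proteins that build them. A ring of connexins in the membrane of 1 cell docks to the ring of the next cell and lets ions and small metabolites pass. In the cornea, Gja1 is known as the connexin of basal epithelial cells, keratocytes and the endothelium, whereas Gjb2 and its relatives are known from stratified epithelia such as skin and corneal epithelium. The 4 connexin genes described here, Gjb2, Gjb6, Gjb5 and Gja1, were taken by symbol from the expression table, which held 30452 genes. Each symbol matched 1 gene. 16 connexin genes of the table are reported in all. 3 of the 4, Gjb2, Gjb5 and Gja1, passed the minimum of 1 FPKM in at least 3 libraries and were tested. Gjb6 reached 1 FPKM in 1 library and is given by its values and by a fit without that minimum.

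RNA was sequenced from rat corneas in 4 groups of 3 libraries, named SF/HA-HEP-PAM, SF/HA, Alkali-burned and Control. The study is about a silk-based patch for the ocular surface, and the names of the first pair of groups stand for patch versions whose abbreviations are not resolved in the labels. Strain, age, sampling time and genotype are not given in the labels, nor is it stated whether patched corneas had been burned first. Replicates are not stated to be separate animals, so each p-value below measures the spread between these samples, which may be technical. The connexins are reported in FPKM, fragments per kilobase of gene scaled to the library's assigned reads, where the gene's length is its whole genomic span with introns. Levels of different genes are therefore per genomic span, not per transcript length.

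Assigned reads per library ranged from 1245606 to 2117399 in SF/HA-HEP-PAM, 499061 to 957696 in SF/HA, 1173159 to 1265298 in Alkali-burned and 486264 to 1015788 in Control. Krt12, the keratin that defines corneal epithelium, was at 1030 FPKM or more in every library. 4 libraries stood apart from their groups. SF/HA-HEP-PAM replicate 3, SF/HA replicate 2 and Alkali-burned replicate 1 had the highest summed level of 9 neutrophil markers in their groups, at 9754, 8699 and 3566 FPKM. S100a8 and S100a9, which stressed epithelium is also known to express, made up at least 99.4% of this sum in every library. Mpo and Ltf were at 0 in every library, and the other 5 markers were at most 3.25 FPKM. Control replicate 1 had 5389 FPKM over 13 markers of keratocytes and stroma, against 2059 and 2356 FPKM in the other 2 Control libraries. Results that rest on these libraries are given with and without them. The 4 are 1 of each group, so 2 libraries a group remain without them. Because they were picked for standing apart, leaving them out can narrow the spread, and the p-values without them are a description.

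Gjb2 (ENSRNOG00000008855, the Cx26 gene) and Gjb6 (ENSRNOG00000022116, the Cx30 gene) are neighbours on rat chromosome 15. In the deposited table, on build mRatBN7.2, Gjb2 spans chr15:31260357-31278177 and Gjb6 spans chr15:31284419-31294582, both on the minus strand, with 6.24 kb between them. Gja1 (ENSRNOG00000000805, the Cx43 gene) spans chr20:35755991-35768582 on the plus strand. Gjb5 (ENSRNOG00000059897) spans chr5:139680671-139683583 on the minus strand. The 250 bases before the start of Gjb2, of the upstream start of Gjb6 and of Gja1 are shown because the results below set Gjb2 against its neighbour Gjb6 and against Gja1. They are from RefSeq on build GRCr8, whose coordinates differ from those of the table, and run 5′ to 3′ along each gene, with the motifs found in capitals. RefSeq's promoter table matched 3 of the 4 genes, with 2 starts for Gjb6, and Gjb5 was not matched.
Gjb2, GRCr8 chr15:35381954-35382203, minus strand: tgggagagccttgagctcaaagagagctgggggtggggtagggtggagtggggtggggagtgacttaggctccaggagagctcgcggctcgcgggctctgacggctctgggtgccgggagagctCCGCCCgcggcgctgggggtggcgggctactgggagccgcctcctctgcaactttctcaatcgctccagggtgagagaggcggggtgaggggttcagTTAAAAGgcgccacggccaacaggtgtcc
Gjb6, GRCr8 chr15:35410139-35410388, minus strand: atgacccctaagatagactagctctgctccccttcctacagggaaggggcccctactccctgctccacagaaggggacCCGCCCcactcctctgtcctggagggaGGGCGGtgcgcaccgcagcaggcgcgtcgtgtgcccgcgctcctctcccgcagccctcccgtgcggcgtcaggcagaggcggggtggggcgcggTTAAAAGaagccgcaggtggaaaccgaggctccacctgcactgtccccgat
Gja1, GRCr8 chr20:36302314-36302563, plus strand: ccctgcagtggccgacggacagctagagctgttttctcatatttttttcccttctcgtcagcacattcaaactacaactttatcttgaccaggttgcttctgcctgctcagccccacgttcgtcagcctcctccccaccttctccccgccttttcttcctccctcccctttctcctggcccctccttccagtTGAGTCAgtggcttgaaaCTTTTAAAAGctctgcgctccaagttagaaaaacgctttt
The letters TTAAAAG stood 29 to 23 bases before the start in Gjb2, 51 to 45 bases before it in Gjb6 and 37 to 31 bases before it in Gja1. In Gja1 the same letters on the other strand overlap that match, 40 to 34 bases before the start. The GC box GGGCGG, read on either strand, stood 126 to 121 bases before the start of Gjb2, and 172 to 167 and 145 to 140 bases before that of Gjb6. An AP-1 motif, TGANTCA, stood 58 to 52 bases before the start of Gja1. Of 33469 RefSeq promoters of 300 bases, 5.3% held TTAAAAG, 33.1% the GC box, 7.33% the AP-1 motif and 14.2% TATAAA on at least 1 strand. The second start of Gjb6 and that of Gja4 held 1 GC box each and no TTAAAAG, and TATAAA was in none of these promoters. TTAAAAG was picked after these promoters had been read, so its matches are a description only.

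Gjb2 had the largest difference between 2 groups among the 4 connexins tested and reported, which include Gja4. SF/HA-HEP-PAM libraries had 128, 85.3 and 179 FPKM, from 3268, 3220 and 3980 reads. SF/HA libraries had 16.7, 77.7 and 14.1 FPKM, Alkali-burned libraries 6.22, 13.3 and 10.7 FPKM, and Control libraries 25.0, 30.2 and 25.4 FPKM. Every SF/HA-HEP-PAM library was above every other library, and every Alkali-burned library was below every other library. The 3 Control libraries lay close together. SF/HA was split, with replicate 2 near the lowest SF/HA-HEP-PAM library and the other 2 replicates between Alkali-burned and Control. Here and below, groups that do not overlap are a description of the values only. The share of all genes that separate in the same way is not given.

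**Figure D1:**
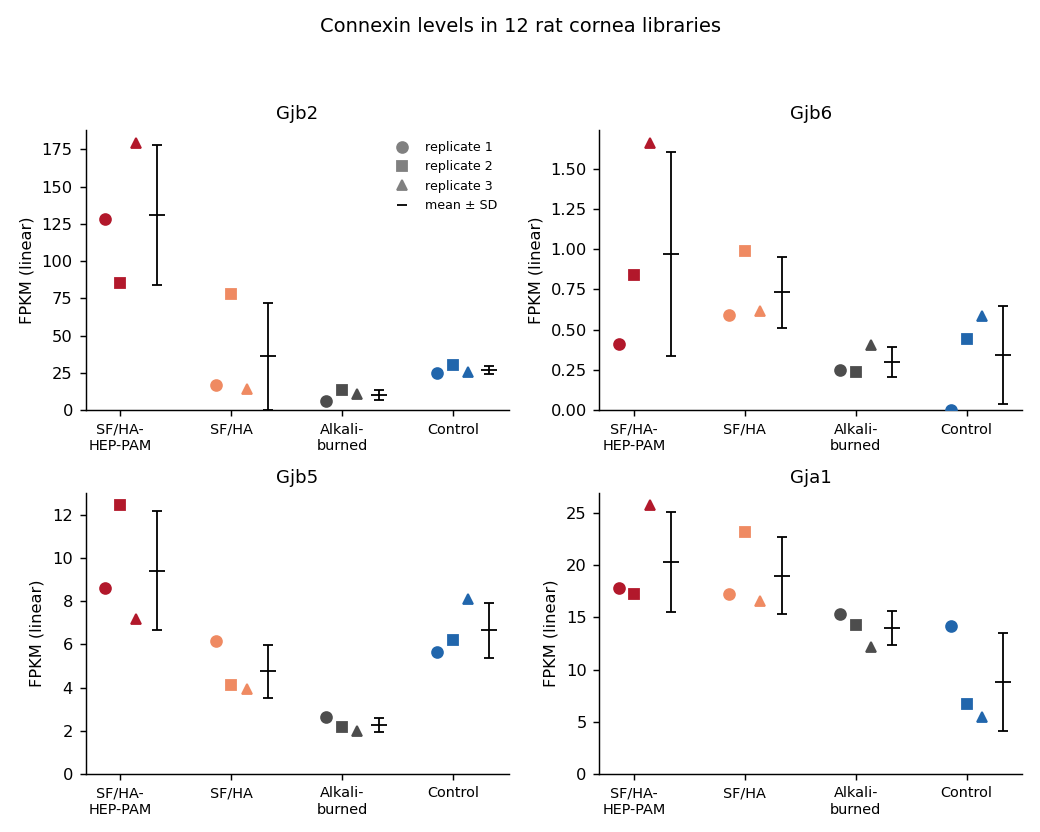
Levels of Gjb2, Gjb6, Gjb5 and Gja1 in 12 libraries, on a linear FPKM axis that starts at 0 in each panel. Points are libraries, with the replicate shown by the symbol, and the bar beside them is the group's mean with its SD (n = 3). SF/HA-HEP-PAM is highest in Gjb2, where its 3 libraries lie between 85.3 and 179 FPKM, and Alkali-burned is at or below 13.3 FPKM.

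Against Alkali-burned, Gjb2 rose in SF/HA-HEP-PAM by 3.57 on the log2(FPKM + 1) scale (SE 0.55, 95% interval 2.34 to 4.79, limma adjusted p = 0.00177). The mean was 131 ± 47.1 FPKM in SF/HA-HEP-PAM and 10.1 ± 3.58 FPKM in Alkali-burned (SD, n = 3 each), a ratio of 13.01. A gene counts as called here at an adjusted p under 0.05 and a log2 difference beyond 1 in size. 2 of the 3 connexins tested, Gjb2 and Gjb5, were called higher, and of all genes tested 7.38% were. In bulk tissue, fewer cells of a type and less RNA per cell cannot be told apart. The call for Gjb2 held under all 24 alternatives run, with log2 differences of 3.03 to 3.84, and without the 4 libraries that stood apart the difference was 3.03.

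Against Control, Gjb2 rose in SF/HA-HEP-PAM by 2.18 (SE 0.55, limma adjusted p = 0.0185), with a mean of 131 ± 47.1 FPKM in SF/HA-HEP-PAM and 26.9 ± 2.88 FPKM in Control (SD, n = 3 each). Gjb2 and Gja1 were the 2 of 3 connexins called higher in this comparison, beside 9.21% of all genes. Leaving out 1 library moved the adjusted p of Gjb2 to 0.0525 (SF/HA-HEP-PAM replicate 1), 0.0741 (SF/HA-HEP-PAM replicate 3) or 0.0529 (Control replicate 3). Without the 4 libraries that stood apart it was 0.00453, at a log2 difference of 1.88.

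Between the patches, Gjb2 rose in SF/HA-HEP-PAM by 2.19 over SF/HA (SE 0.55, 95% interval 0.97 to 3.42, limma adjusted p = 0.0369). The mean was 131 ± 47.1 FPKM in SF/HA-HEP-PAM and 36.2 ± 36.0 FPKM in SF/HA (SD, n = 3 each). Gjb2 was the 1 of 3 connexins called higher, beside 3.84% of all genes. This call was lost in 12 of 24 alternatives. With all libraries it was lost with no filter (0.0752), median-of-ratios scaling (0.0612), only the compared groups (0.0946) and the replicate block (0.0513). Leaving out SF/HA-HEP-PAM replicate 1, 2 or 3 gave an adjusted p of 0.108, 0.0584 or 0.146. It was 0.102 and 0.128 without SF/HA replicate 1 and 3, 0.0502 and 0.0553 without Alkali-burned replicate 2 and 3 and 0.052 without Control replicate 3. Without SF/HA replicate 2, the library of this group highest in S100a8 and S100a9, the log2 difference was 2.95 and the adjusted p 0.00187. Without all 4 libraries that stood apart the difference was 2.69 and the adjusted p 0.00779.

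SF/HA was not called apart from Alkali-burned or Control in Gjb2. Its log2 difference from Alkali-burned was 1.38 (SE 0.55, limma adjusted p = 0.24), and from Control it was -0.01 (adjusted p = 1.0). None of the 3 connexins tested was called in limma against Alkali-burned, where 2.44% of all genes were called; 2 of 3, Gjb2 and Gjb5, had an unadjusted p under 0.05, and voom on the reads called 0. The Gjb2 difference from Alkali-burned was 0.62 without SF/HA replicate 2 and 0.34 without the 4 libraries that stood apart. Against Control none of the 3 was called in limma either, beside 4.56% of all genes. There 1 of 3, Gja1, had an unadjusted p under 0.05, and voom called 1. Here and below, counts at an unadjusted p or by voom are descriptions, since the share of all genes under either rule is not given.

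Alkali-burned corneas had less Gjb2 than Control corneas in every library, with a log2 difference of -1.39 (SE 0.55, limma adjusted p = 0.162) that missed the threshold. The means were 10.1 ± 3.58 FPKM in Alkali-burned and 26.9 ± 2.88 FPKM in Control (SD, n = 3 each). Of the 3 connexins tested, Gjb5 was called lower, beside 1.28% of all genes, and 5.69% of all genes were called in either direction. With all libraries Gjb2 passed with only the compared groups (adjusted p = 0.029) and with library weights (0.046). It also passed without SF/HA replicate 2 (adjusted p = 0.0206), and without the 4 libraries that stood apart, at a log2 difference of -1.15 (adjusted p = 0.0267). In the other 20 of 24 alternatives it was not called. In the order of group means, SF/HA-HEP-PAM, SF/HA, Control and Alkali-burned, the step between SF/HA and Control lay within their spread.

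**Figure D2:**
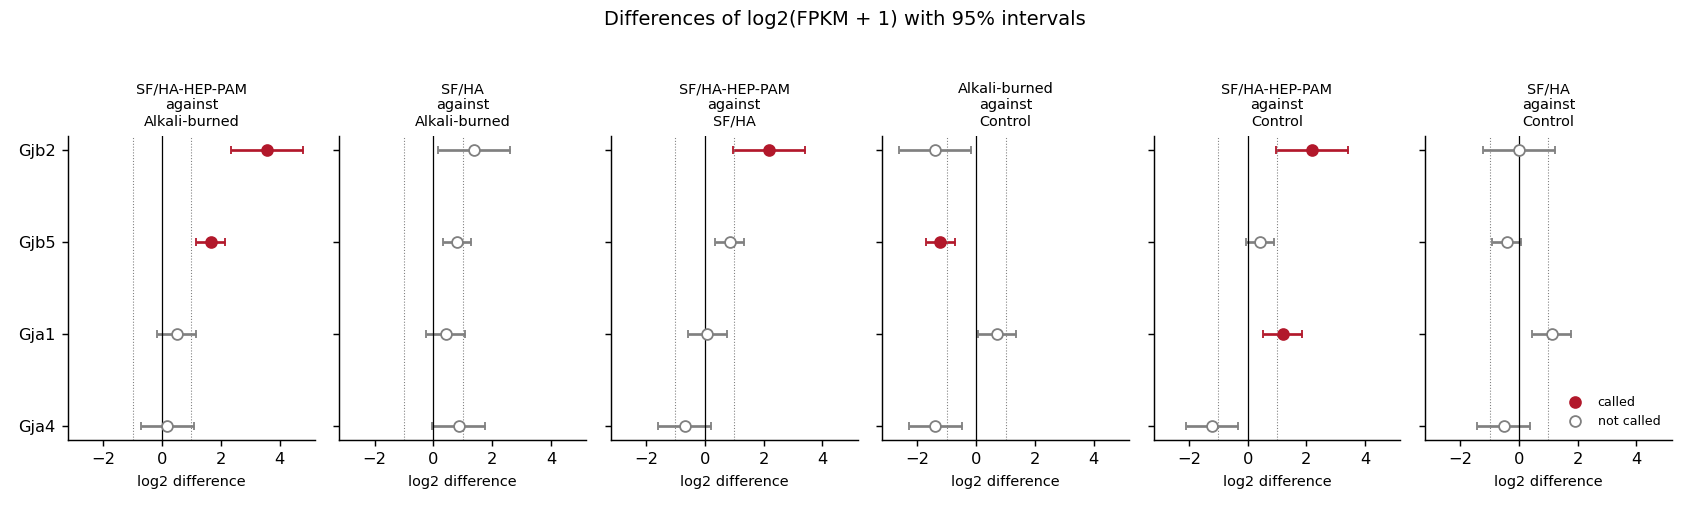
Differences of log2(FPKM + 1) for Gjb2, Gjb5, Gja1 and Gja4, in 6 comparisons, each as first group minus second. Points are limma estimates, bars are 95% intervals, dotted lines mark -1 and 1, and filled red points were called. Gjb2 in SF/HA-HEP-PAM against Alkali-burned, at 3.57, is the farthest from 0.

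Gjb6, which in other stratified epithelia pairs with Gjb2 in mixed channels, was near the limit of detection, with 81 reads in the 12 libraries. SF/HA-HEP-PAM libraries had 0.412, 0.836 and 1.66 FPKM, from 6, 18 and 21 reads. SF/HA libraries had 0.589, 0.986 and 0.616 FPKM, Alkali-burned libraries 0.252, 0.233 and 0.404 FPKM, and Control libraries 0, 0.444 and 0.581 FPKM. The 0 of Control replicate 1 allows up to 0.607 FPKM, counting 3 reads as the floor for counting error. All SF/HA-HEP-PAM and SF/HA libraries were above all Alkali-burned libraries, and SF/HA-HEP-PAM overlapped both SF/HA and Control. In the fit with no minimum, the log2 difference of SF/HA-HEP-PAM from Alkali-burned was 0.56 (SE 0.24, limma adjusted p = 0.207), that from Control was 0.53 (adjusted p = 0.237), and the F-test over 4 groups gave an adjusted p of 0.321. The unadjusted p for the difference from Alkali-burned was 0.0447. The log2(FPKM + 1) scale compresses differences of a gene below 1 FPKM, and no Gjb6 difference passed adjustment. The Gjb6 row overlaps an unnamed gene of the other strand, ENSRNOG00000068095, which had 0 FPKM in every group, and the Gjb2 row overlaps 2 unnamed genes that also had 0 FPKM.

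Gjb5 is a connexin of keratinocytes. SF/HA-HEP-PAM libraries had 8.63, 12.5 and 7.17 FPKM, from 36, 77 and 26 reads. SF/HA libraries had 6.17, 4.13 and 3.94 FPKM, Alkali-burned libraries 2.63, 2.17 and 1.97 FPKM, and Control libraries 5.65, 6.20 and 8.11 FPKM. Alkali-burned was below every library of the other groups. SF/HA-HEP-PAM was above all SF/HA libraries and overlapped Control. The reads behind these values were few, 24 over the 3 Alkali-burned libraries and 29 over the 3 SF/HA libraries.

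Gjb5 rose in SF/HA-HEP-PAM over Alkali-burned by 1.65 (SE 0.22, limma adjusted p = 0.000782), with means of 9.43 ± 2.75 FPKM in SF/HA-HEP-PAM and 2.26 ± 0.339 FPKM in Alkali-burned (SD, n = 3 each), a ratio of 4.17. It fell in Alkali-burned against Control by 1.22 (SE 0.22, limma adjusted p = 0.00868), with means of 2.26 ± 0.339 FPKM in Alkali-burned and 6.65 ± 1.29 FPKM in Control (SD, n = 3 each). Both calls held in 23 of 24 alternatives; without the 4 libraries that stood apart the differences were 1.89 (adjusted p = 0.0065) and -1.40 (adjusted p = 0.0209). Each log2 difference was under 1 with a pseudocount of 5, at 0.98 and -0.68, a setting that shrinks genes of this level. Over SF/HA the difference of SF/HA-HEP-PAM was 0.85 (SE 0.22, limma adjusted p = 0.0396), which passed on p and not on size; without SF/HA replicate 1 it was 1.02 (adjusted p = 0.0378). The differences were 0.80 for SF/HA against Alkali-burned (adjusted p = 0.0844), 0.43 for SF/HA-HEP-PAM against Control (adjusted p = 0.194) and -0.42 for SF/HA against Control (adjusted p = 0.301), none of them called.

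Of the connexins outside these 4, Gja4 was tested. Gja4, known as a connexin of vascular endothelium, had 23.8, 24.7 and 14.6 FPKM in SF/HA-HEP-PAM, 28.4, 32.7 and 40.8 FPKM in SF/HA, 28.1, 13.8 and 14.9 FPKM in Alkali-burned and 95.1, 33.8 and 35.8 FPKM in Control. Its Control libraries were above all SF/HA-HEP-PAM and Alkali-burned libraries and overlapped SF/HA. Of 7 markers of vascular endothelium, Pecam1 and Cdh5 were at or below 0.26 and 0.214 FPKM in every library. Kdr, the highest of the 7, was at 0.639 to 1.67 FPKM in Control and at most 0.733 FPKM in the other groups. The sum of the 7 was highest in Control replicate 1, at 1.77 FPKM, the library with most Gja4, and most of it was Kdr. Pecam1 averaged 0.0218 FPKM in Control and 0.123 in Alkali-burned, and Cdh5 0.0176 and 0.105. Emcn and Tie1 were also lower in Control than in Alkali-burned, whereas Tek and Vwf, with few reads, were higher. The part of vascular cells in the Gja4 level was not tested.

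The Gja4 differences from Control were -1.21 in SF/HA-HEP-PAM (limma adjusted p = 0.0568) and -1.39 in Alkali-burned (adjusted p = 0.0601). They missed the threshold. With all libraries both passed at the minimum of 5 FPKM (0.0431 for SF/HA-HEP-PAM, 0.0382 for Alkali-burned), with median-of-ratios scaling (0.0274 and 0.046), with quantile scaling (0.0308 and 0.0402) and with voom (0.00591 and 0.0131). That of SF/HA-HEP-PAM also passed with the replicate block (0.0488), and that of Alkali-burned with library weights (0.0123). Both passed without Alkali-burned replicate 1 (0.0482 for SF/HA-HEP-PAM, 0.0496 for Alkali-burned). Without Control replicate 2 that of SF/HA-HEP-PAM passed as well (0.049). Without the 4 libraries that stood apart, which include the Control library at 95.1 FPKM, the Gja4 difference was -1.22 in Alkali-burned (adjusted p = 0.0114) and -0.50 in SF/HA-HEP-PAM (adjusted p = 0.0935). Gja4 in SF/HA was then 1.19 above Alkali-burned (adjusted p = 0.0214), against 0.86 with all libraries. A gene of the other strand, ENSRNOG00000067866, overlaps Gja4 and averaged 2.07 FPKM in SF/HA-HEP-PAM, 0.352 in SF/HA, 0.0631 in Alkali-burned and 0.479 in Control. Counting by strand is not stated, so reads of Gja4 and of its antisense partner cannot be told apart.

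Gja1 followed another order. SF/HA-HEP-PAM libraries had 17.8, 17.3 and 25.8 FPKM, from 321, 460 and 405 reads, and SF/HA libraries had 17.2, 23.2 and 16.6 FPKM. Alkali-burned libraries had 15.4, 14.3 and 12.2 FPKM, and Control libraries 14.2, 6.72 and 5.47 FPKM. All patch libraries were above all Alkali-burned and Control libraries, though neither patch was called apart from Alkali-burned. The patch groups overlapped each other. Control replicate 1, the library high in stromal markers, had about the Gja1 level of the Alkali-burned libraries.

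Gja1 rose in SF/HA-HEP-PAM over Control by 1.20 (SE 0.30, 95% interval 0.54 to 1.86, limma adjusted p = 0.0171), with means of 20.3 ± 4.80 FPKM in SF/HA-HEP-PAM and 8.80 ± 4.73 FPKM in Control (SD, n = 3 each). This call was lost in 5 of 24 alternatives. With all libraries it was lost with only the compared groups (adjusted p = 0.0606) and with a pseudocount of 5, at a log2 difference of 0.91. Leaving out 1 library moved the adjusted p to 0.0711 (SF/HA-HEP-PAM replicate 3), 0.0583 (Control replicate 2) or 0.059 (Control replicate 3). Without the 4 libraries that stood apart it was 0.0025, at a difference of 1.39. In SF/HA over Control the difference was 1.12 (SE 0.30, adjusted p = 0.0522), and it passed without Control replicate 1 at 1.49 (adjusted p = 0.0046) and without the 4 libraries that stood apart at 1.34 (adjusted p = 0.0041). In Alkali-burned over Control it was 0.71 (SE 0.30, adjusted p = 0.181), and it passed without Control replicate 1 at 1.08 (adjusted p = 0.0135) and without the 4 libraries that stood apart at 1.01 (adjusted p = 0.00953).

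No difference in Gja1 was called among the 3 groups other than Control. SF/HA-HEP-PAM differed from SF/HA by 0.08 on the log2 scale, with a 95% interval of -0.58 to 0.74. It differed from Alkali-burned by 0.49, with an interval of -0.17 to 1.15 (limma adjusted p = 0.267), and SF/HA differed from Alkali-burned by 0.41 (adjusted p = 0.544). In the order of means, SF/HA-HEP-PAM, SF/HA, Alkali-burned and Control, no step between neighbours passed the test.

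In limma's F-test over the 4 groups, all 3 connexins tested had an adjusted p under 0.05, as had 26.7% of all genes tested. The adjusted p was 0.00639 for Gjb2, 0.00253 for Gjb5 and 0.0368 for Gja1. That of Gja1 was above 0.05 when any 1 library other than Control replicate 1 was left out, between 0.0504 and 0.113, and 0.00307 without Control replicate 1. With all libraries it was 0.0627 with the replicate block, 0.0848 with no filter and 0.0515 with quantile scaling. Those of Gjb2 and Gjb5 stayed at or below 0.0288 in all 23 alternatives run.

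Ratios within a library depend on that library's scaling only through the pseudocount. 11 such log2 ratios of FPKM + 1 were tested with an exact permutation F-test over the 12 libraries, and 7 passed at a Benjamini-Hochberg adjusted p under 0.05. Between pairs of groups an exact test of 3 against 3 libraries cannot go below 0.1, so pairs are described by overlap only. The log2 ratio of Gjb2 to Gja1 was 2.59 ± 0.30 in SF/HA-HEP-PAM, 0.48 ± 1.06 in SF/HA, -0.49 ± 0.60 in Alkali-burned and 1.61 ± 0.72 in Control (SD, n = 3 each; exact permutation, adjusted p = 0.0245). Per kilobase of genomic span, Gjb2 exceeded Gja1 in every SF/HA-HEP-PAM and Control library, and was below it in every Alkali-burned library. SF/HA was split again, between 1.70 in replicate 2 and -0.22 in the lowest library. This ratio was lost in 6 of 16 alternatives, all of which left out 1 library: SF/HA-HEP-PAM replicate 1 (0.0839) or 2 (0.0514), Alkali-burned replicate 1 (0.0571) or 3 (0.0621), or Control replicate 2 or 3 (0.0505 each).

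Gjb2 also differed between groups relative to 10 markers of corneal epithelium. Its log2 ratio to their mean log2(FPKM + 1) was 1.49 ± 0.56 in SF/HA-HEP-PAM, -0.24 ± 1.34 in SF/HA, -1.25 ± 0.33 in Alkali-burned and -0.48 ± 0.30 in Control (SD, n = 3 each; exact permutation, adjusted p = 0.0468). For Gjb5 the same ratio was -2.14 ± 0.35 in SF/HA-HEP-PAM, -2.53 ± 0.12 in SF/HA, -2.96 ± 0.33 in Alkali-burned and -2.35 ± 0.22 in Control (exact permutation, adjusted p = 0.0468). Both were close to the threshold. The Gjb2 ratio passed in 2 of 16 alternatives, which left out SF/HA replicate 2 alone or with the other 3 libraries that stood apart, and its adjusted p was up to 0.106 in the rest. The Gjb5 ratio passed in 5, with pseudocounts of 0.1 and 0.5 and without SF/HA-HEP-PAM replicate 3, Alkali-burned replicate 1 or Control replicate 1, and reached 0.156 in the rest.

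Relative to 13 markers of keratocytes and stroma, Gja1 was highest in SF/HA-HEP-PAM at 0.25 ± 0.58, then -0.62 ± 0.29 in SF/HA, -0.90 ± 0.13 in Alkali-burned and -2.13 ± 0.18 in Control (SD, n = 3 each). No groups overlapped, and the exact permutation p of 6.49e-05 is the smallest these arrangements can give (adjusted p = 0.000714). This ratio passed in all 16 alternatives, at an adjusted p of 0.0349 or less. Its denominator, the mean of the markers' log2(FPKM + 1), was 4.14 ± 0.30 in SF/HA-HEP-PAM, 4.93 ± 0.04 in SF/HA, 4.80 ± 0.06 in Alkali-burned and 5.32 ± 0.65 in Control (SD, n = 3 each), lower in every SF/HA-HEP-PAM library than in every other library. The markers' summed level was 752 to 1262 FPKM in SF/HA-HEP-PAM, 2056 to 2250 in SF/HA, 1673 to 2176 in Alkali-burned and 2059 to 5389 in Control.

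**Figure D3:**
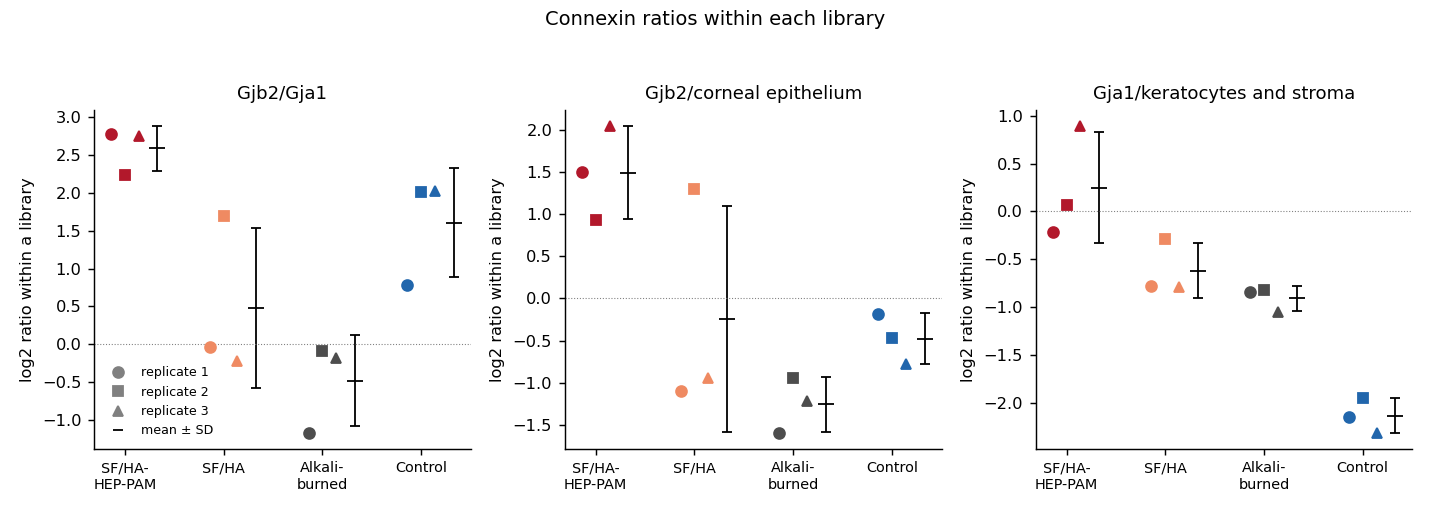
Log2 ratios within each of 12 libraries, of Gjb2 to Gja1, of Gjb2 to the mean of corneal epithelium markers and of Gja1 to the mean of markers of keratocytes and stroma, all on FPKM + 1. Points are libraries and bars are means with SD (n = 3). The ratio of Gja1 to stromal markers separates all 4 groups, with means of 0.25 in SF/HA-HEP-PAM and -2.13 in Control.

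Of the other ratios, Gjb5 to Gja1 passed (exact permutation, adjusted p = 0.0468) and was lowest in Alkali-burned, at -1.04 ± 0.64 in SF/HA-HEP-PAM, -1.81 ± 0.45 in SF/HA, -2.20 ± 0.07 in Alkali-burned and -0.27 ± 0.86 in Control (SD, n = 3 each). It passed in 3 of 16 alternatives, without SF/HA-HEP-PAM replicate 3, without Control replicate 1 and without all 4 libraries that stood apart, and reached 0.106 in the rest. Gjb6 to Gjb2 and Gjb6 to Gjb5 passed as well (adjusted p = 0.0245 and 0.0468), but Gjb6 is mostly pseudocount in these ratios, and they passed in 9 and 3 of 16 alternatives. Gjb5 to Gjb2, Gjb6 to Gja1, and Gjb6 and Gja1 to epithelial markers did not pass (adjusted p = 0.128, 0.265, 0.149 and 0.105). Gja1 to epithelial markers passed without Control replicate 1 (0.0196) and without the 4 libraries that stood apart (0.0449), Gjb6 to epithelial markers when SF/HA-HEP-PAM replicate 3 was left out (0.0413), and Gjb6 to Gja1 without Control replicate 1 (0.0302).

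The other connexins reported were sparse or absent from the reads. Over the 12 libraries, Gjc1 had 76 reads, Gja3 3, Gjb1 and Gjd2 2 each and Gjc3 1. Gja5, Gja6, Gja10, Gjd3, Gjd4 and Gje1 had 0. Of the pannexins, relatives that form channels in a single membrane, Panx1 had 61 reads, Panx2 32 and Panx3 0. Of the 16 connexins reported, 4 were therefore tested. In SF/HA-HEP-PAM over Alkali-burned 2 of the 4 were called higher, with a median log2 difference of 1.07 beside 0.04 over all genes tested. In SF/HA-HEP-PAM over SF/HA 1 of the 4 was, Gjb2, with a median of 0.46 beside 0.13, and over Control 2 were, with a median of 0.81 beside 0.14. In Alkali-burned against Control 1 of the 4, Gjb5, was called lower, with a median of -1.30 beside 0.06. Limma called 0 of the 4 in SF/HA against Alkali-burned and against Control, where 2 and 1 had an unadjusted p under 0.05 and voom called 0 and 1. For these last counts the share of all genes is not given.

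Connexin partners and kinases, among them proteins that anchor or phosphorylate connexins, were taken as a second list. Of its 22 genes 13 were tested, and 6 rose in SF/HA-HEP-PAM over Alkali-burned, with a list median of 0.91, beside 7.38% of all genes called higher. Ctnnb1, the beta-catenin of adherens junctions, rose by 2.38 (SE 0.39, limma adjusted p = 0.00221), and Vcl, vinculin, which ties junctions to actin, rose by 2.13 (SE 0.25, adjusted p = 0.00043). Csnk1d, a casein kinase that phosphorylates Gja1 protein, rose by 1.39 (SE 0.15, adjusted p = 0.000257), and Cav2, a caveolin, by 1.35 (SE 0.26, adjusted p = 0.00529). Cdh1, E-cadherin, and Ezr, the membrane linker ezrin, were also called higher, at 1.04 and 1.03. Ctnnb1, Vcl and Csnk1d were the 3 of 13 called higher in SF/HA-HEP-PAM over SF/HA, by 1.92, 1.71 and 1.18, beside 3.84% of all genes. They were also the 3 called higher over Control, by 2.07, 2.19 and 1.48, beside 9.21%. Limma called 0 of the 13 in SF/HA against Alkali-burned, in Alkali-burned against Control and in SF/HA against Control, where 4, 1 and 2 had an unadjusted p under 0.05. Voom on the reads, which tested 21, called 0, 2 and 1 there. For the unadjusted and voom counts the share of all genes is not given.

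Markers of the corneal layers also differed between groups, not always in the order of the connexins. Of 9 tested epithelial markers, 4 were called higher in SF/HA-HEP-PAM over Alkali-burned, Pax6 by 1.46, Dsg3 by 1.45, Epcam by 1.21 and Cdh1 by 1.04, with a list median of 1.04, beside 7.38% of all genes called higher. The 10 markers summed to 3568 to 4593 FPKM in SF/HA-HEP-PAM, 2803 to 4069 in SF/HA, 2178 to 3515 in Alkali-burned and 4023 to 7213 in Control. In Alkali-burned against Control 3 of the 9 were called lower, Tkt, Aldh3a1 and Pax6, by 1.28, 1.27 and 1.16 on the log2 scale, beside 1.28% of all genes. In SF/HA-HEP-PAM against Control, Krt15 was called higher (2.35), beside 9.21% of all genes. Tkt (-1.085) and Aldh3a1 (-1.01) were called lower there, beside 2.39%. Markers of wound epithelium, 9 in the table, summed to 1146 to 3577 FPKM in SF/HA-HEP-PAM, 1014 to 2193 in SF/HA, 837 to 1253 in Alkali-burned and 326 to 490 in Control. Of 12 tested markers of keratocytes and stroma, Fmod, Ptgds and Vim were called lower in SF/HA-HEP-PAM than in Alkali-burned, beside 3.71% of all genes. Against Control 5 were called lower, Angptl7, Kera, Col1a1, Col1a2 and Col5a2, beside 2.39%. The part of these markers in the connexin differences was not tested beyond the ratios above.

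Other cell types were read from their markers as well. Myofibroblast markers, 8 in the table, summed to 28.7 to 41.2 FPKM in SF/HA-HEP-PAM, 39.4 to 94.1 in SF/HA, 78.04 to 122 in Alkali-burned and 13.4 to 31.4 in Control. The 7 corneal endothelium markers summed to at most 14.2 FPKM in any library. Macrophage markers, 10 in the table, summed to 153 to 166 FPKM in SF/HA-HEP-PAM, 169 to 330 in SF/HA, 225 to 275 in Alkali-burned and 66.9 to 88.6 in Control. Cd68 weighed most in the lower sum of SF/HA-HEP-PAM than of Alkali-burned, with means of 55.6 and 176 FPKM. It was the 1 of 6 tested markers called lower there (-1.65), beside 3.71% of all genes, and the list median was 0.13. The 8 lens markers summed to 4.66 to 6.59 FPKM in SF/HA-HEP-PAM and at most 2.19 in the other groups, and the lens connexin Gja3 had 3 reads. Cryba1 and Mip, with means of 2.98 and 2.08 FPKM, made up most of the SF/HA-HEP-PAM sum. Cryaa, Cryba4 and Crybb1 had lower means in SF/HA-HEP-PAM than in Alkali-burned, and Crybb2, Crygs and Lim2 were at 0 in every group. The 7 vascular markers summed to at most 1.77 FPKM. The neutrophil marker sum, nearly all S100a8 and S100a9, was highest in the SF/HA library with most Gjb2, replicate 2, and in the SF/HA-HEP-PAM library with most Gjb2, replicate 3, and in Alkali-burned it was highest in the library with least Gjb2, replicate 1. The part of these cells in the connexin levels was not tested.

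Genes whose levels ran most like each connexin were ranked among 2521 tested genes of at least 5 FPKM by Pearson's r of log2(FPKM + 1) over the 12 libraries. These libraries share the group differences and their depth, so r is a description. Among the first for Gjb2 were Lin7c, Srebf2, Ptp4a2 and Slc20a1, with r of 0.967 to 0.954. Their r over deviations from the group means was 0.946, 0.927, 0.928 and 0.809. This measure pools all groups, and Gjb2 spread most within SF/HA, from 14.1 to 77.7 FPKM. How far it rests on SF/HA replicate 2 was not tested. For Gjb5 the first 5 were Siah2, Pdcd6, Cldnd1, F2rl1 and Adm, with r of 0.93 to 0.91 and 0.421 to 0.742 over deviations. For Gja1 they were Zyx, Slc39a1, Vegfa, Fscn1 and Fam43a, with r of 0.951 to 0.907 and 0.744 to 0.895 over deviations. For the sparse Gjb6 they were Bzw1, Rbp2, Fgfbp1, Sprr1b and Il1rn, with r of 0.922 to 0.871.

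Among the connexins themselves the same measure was 0.708 between Gjb2 and Gjb5 over the 12 libraries, and -0.475 over deviations from the group means. Between Gjb2 and its neighbour Gjb6 it was 0.646 and 0.421, and between Gjb2 and Gja1 0.4 and 0.338.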

How the data were processed

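The deposited table holds FPKM values in 12 columns, 1 per library; columns were matched to samples by name. Per the labels' protocols, cDNA was primed with poly(dT) primers carrying sample barcodes and molecular identifiers; whether identifiers were collapsed is not given in the sources used here. Per the series text reads were trimmed with fastp, counted with HTSeq-count and tested by the authors with DESeq2; the submitters' processing notes instead name featureCounts for counting, with bcl2fastq, STAR and build mRatBN7.2. Of 30560 lines, 108 name no gene and were left out. FPKM times length came out as whole reads, with a largest deviation of 0.051 reads, giving 486264 to 2117399 reads per library. Floors, at 3 reads, cover counting error only.

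Tests used limma 3.58.1 in R 4.3.3 on log2(FPKM + 1) with a variance trend, all 12 libraries in 1 model of 4 group means, and the 6112 genes that reached 1 FPKM in 3 or more libraries. Benjamini-Hochberg adjustment ran over all genes tested within a comparison. A fold on this scale understates changes of low genes. The fit was tested on simulated data with known changes. Exact permutation tests of ratios used all 369600 arrangements.

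The connexins and lists were chosen with earlier results of these data known, as were the 4 libraries left out together. Alternatives were pseudocounts of 0.1, 0.5 and 5, 2 other filters, 2 scalings, the compared groups alone, library weights, voom on recovered reads, a replicate block, and each library left out in turn. Named genes were the connexins and pannexins, up to 4 called genes per list and comparison by size, with all called genes given where a count is split by name, and the 5 genes most like each connexin; some genes these rules name are not reported here and were left out of the connexin list. Figures were drawn with matplotlib 3.10.9.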

Additional observations from a re-analysis of the deposited data

Results flagged for a closer look

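The difference of Gjb2 from Alkali-burned was larger under SF/HA-HEP-PAM than under SF/HA, by 2.19 on the log2(FPKM + 1) scale (SE 0.55, limma adjusted p = 0.0369). It was 3.57 in SF/HA-HEP-PAM and 1.38 in SF/HA. Both differences share the Alkali-burned libraries, so their gap equals the comparison of the 2 patches. All 3 SF/HA-HEP-PAM libraries were above all 3 SF/HA libraries, at 85.3 to 179 FPKM in SF/HA-HEP-PAM and 14.1 to 77.7 FPKM in SF/HA. With 3 libraries a group, no test for an outlying sample was run. The call was lost in 12 of 24 alternatives, among them no filter (adjusted p = 0.0752), median-of-ratios scaling (0.0612), only the compared groups (0.0946) and the replicate block (0.0513).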

How the results depend on the processing

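Of 24 alternatives per comparison, Gjb2 in SF/HA-HEP-PAM against Alkali-burned kept its call in all, and Gjb5 there and in Alkali-burned against Control in 23. The count of the 3 tested connexins called became 1 in place of 2 with a pseudocount of 5 in SF/HA-HEP-PAM against Alkali-burned. In SF/HA-HEP-PAM against SF/HA it became 0 in place of 1 with no filter, median-of-ratios scaling, only the compared groups or the replicate block. In Alkali-burned against Control it was 0 with a pseudocount of 5, 2 with only the compared groups or library weights and 3 without the 4 libraries that stood apart, in place of 1. In SF/HA-HEP-PAM against Control it was 1 in place of 2 with a pseudocount of 5 or only the compared groups. In SF/HA against Control it was 1 in place of 0 with a pseudocount of 0.1, the minimum of 5 FPKM, median-of-ratios scaling, library weights, voom or without the 4 libraries; the gene was Gja1. Leaving out 1 library gave 2 to 2, 0 to 0, 0 to 1, 1 to 2, 0 to 2 and 0 to 1 calls in SF/HA-HEP-PAM and SF/HA against Alkali-burned, SF/HA-HEP-PAM against SF/HA, and Alkali-burned, SF/HA-HEP-PAM and SF/HA against Control; in that order all genes called ran from 478 to 711, 74 to 183, 88 to 319, 225 to 420, 520 to 740 and 196 to 364.

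Over all genes, a pseudocount of 5 gave 336, 89, 143, 188, 345 and 139 calls in the same order, in place of 678, 149, 267, 348, 709 and 279, since it shrinks low genes. Voom gave 1795, 226, 731, 652 and 1366 in the first 5. No filter gave 88, 217 and 174 in SF/HA against Alkali-burned, Alkali-burned against Control and SF/HA against Control, where only the compared groups gave 172. The 5 FPKM minimum gave 173 in SF/HA-HEP-PAM against SF/HA. The F-test passed 1629 genes, 1062 at the 5 FPKM minimum, 2729 with library weights, 3087 with voom and 984 to 2027 without 1 library, with 2 to 3 of the 3 connexins. The 7 ratios became 3, 4 and 4 with pseudocounts of 0.1, 0.5 and 5, and 1 to 7 without 1 library. Of called genes, the share called higher in SF/HA-HEP-PAM against Alkali-burned was 66.5%, and 50.1% with median-of-ratios and 55.1% with quantile scaling. In SF/HA-HEP-PAM against SF/HA it was 88.0%, then 64.5% and 70.8%, in SF/HA-HEP-PAM against Control 79.4%, then 66.7% and 57.6%, and in Alkali-burned against Control 77.6%, then 75.4% and 63.3%. In these 4 comparisons the scalings moved the median of all genes by over 0.1, except median-of-ratios in Alkali-burned against Control (0.05 in place of 0.06); in SF/HA-HEP-PAM against Control it moved to -0.115 with quantile scaling in place of 0.138.

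3 uncalled differences changed sign. Gja1 in SF/HA-HEP-PAM against SF/HA, 0.08, became -0.13 with median-of-ratios scaling, -0.041 with quantile scaling, -0.14 with voom, and -0.097 and -0.0046 without SF/HA-HEP-PAM replicate 3 and SF/HA replicate 3, its range without 1 library reaching 0.23. Gjb2 in SF/HA against Control, -0.01, became 0.032 with a pseudocount of 5, 0.0051 with median-of-ratios scaling, 0.31 and 0.43 without SF/HA replicate 1 and 3, and 0.075 without Control replicate 2, its range without 1 library starting at -0.76. With 1 library left out, Gja4 in SF/HA-HEP-PAM against Alkali-burned, 0.18, ran from -0.0021 without Alkali-burned replicate 2 to 0.49 without Alkali-burned replicate 1. Its highest value over all 24 alternatives was 0.72. Causes were not tested.

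Of 18 same-number pairs of libraries, 2 correlated above 0.1 in their deviations from group means. The range was -0.0935 to 0.155, and -0.104 to 0.165 in other pairs, so same-number pairs did not stand out. Deviations sum to 0 within each small group, so these values cannot settle whether libraries were paired, and the labels do not state it. With the replicate block, the adjusted p of Gjb2 in SF/HA-HEP-PAM against SF/HA was 0.0513, that of Gja1 in the F-test 0.0627 and that of Gja4 in SF/HA-HEP-PAM against Control 0.0488. Reads were few for Gjb6 (81 in all) and Gjb5 (24 in Alkali-burned), which limits the precision of both.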
